A study of Mus musculus with 15 samples.

Results

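Calcineurin and its substrates of the NFAT family form the signalling route described here, through 8 genes taken by symbol from the deposited RNA-seq table. They were Rcan1 and Rcan2, which encode regulators that bind calcineurin, Ppp3ca and Ppp3cb, which encode catalytic subunits, and Nfatc1, Nfatc2, Nfatc3 and Nfatc4, which encode the transcription factors. All 8 were among the 14091 features listed, and all 8 were among the 13328 with enough counts to be tested. The measurements came from mouse embryonic fibroblasts, connective tissue cells grown from embryos, all of the ICR strain. The 3 groups held 5 libraries each, named MEF, MGT and MΔGΔT. Cells of the MGT and MΔGΔT groups had been given retrovirus and were harvested 1 week later. The letters of MGT are for the heart factors Mef2c, Gata4 and Tbx5, which together can turn fibroblasts into cells resembling heart muscle. In MΔGΔT, the symbol Δ is read as an engineered form of Mef2c and of Gata4, from the title of the series, since the labels do not define it. No label names an empty virus for the MEF group, so the effect of the factors and that of transduction cannot be told apart in comparisons with MEF. No label ties replicates to separate cultures either, and p-values therefore measure the spread between these libraries, which may be technical.

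Calcineurin is a phosphatase that is switched on by calcium and calmodulin and consists of a catalytic and a regulatory subunit. It removes phosphate from NFATc proteins in the cytoplasm, which then enter the nucleus and act on target genes together with partners such as AP-1, GATA4 and MEF2 proteins, while kinases return them to the cytoplasm. In heart muscle the route is known for driving growth of the cells, and in the embryo Nfatc1 is required for the heart valves. RCAN proteins bind the phosphatase and can inhibit it, and an internal promoter of Rcan1 is a textbook target of NFAT, which forms a feedback loop.

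The promoter sequences of Rcan1 and Rcan2 are shown because these were the 2 genes that rose most in MΔGΔT cells. RefSeq sequence on build GRCm38.p6 was used for 6 of the 8 genes, in 11 windows that each span the 250 bases before an annotated start. The upstream start of Rcan1 has the window chr16:92466170-92466419 and its internal start has chr16:92400079-92400328, both on the minus strand. The first start of Rcan2 has the window chr17:43801102-43801351 on the plus strand. Sequences are written 5′ to 3′, and capitals mark the letters GGAAA, the core that NFAT proteins recognise, or TTTCC, the same core on the other strand.

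Rcan1, upstream start: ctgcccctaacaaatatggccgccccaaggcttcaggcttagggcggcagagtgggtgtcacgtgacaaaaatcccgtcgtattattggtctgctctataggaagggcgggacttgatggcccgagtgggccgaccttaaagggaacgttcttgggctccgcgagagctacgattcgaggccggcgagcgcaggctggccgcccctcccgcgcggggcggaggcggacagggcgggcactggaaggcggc

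Rcan1, internal start: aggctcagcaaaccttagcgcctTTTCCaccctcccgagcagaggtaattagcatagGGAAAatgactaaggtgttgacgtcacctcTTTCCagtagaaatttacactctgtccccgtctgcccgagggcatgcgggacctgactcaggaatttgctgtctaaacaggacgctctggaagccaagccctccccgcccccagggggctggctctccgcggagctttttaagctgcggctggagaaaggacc

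Rcan2, first start: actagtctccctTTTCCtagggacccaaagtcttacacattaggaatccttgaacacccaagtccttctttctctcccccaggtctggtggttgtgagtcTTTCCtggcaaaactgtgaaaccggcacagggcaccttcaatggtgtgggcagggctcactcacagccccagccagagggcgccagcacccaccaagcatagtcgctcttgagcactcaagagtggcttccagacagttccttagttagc

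The upstream window of Rcan1 held 0 cores and the internal window held 3. Of all 32851 windows of this length in the RefSeq table, 55.6% held at least 1 core and 6.39% held at least 3. The internal window also held 1 match to the AP-1 motif TGANTCA, found in 6.75% of all windows, and 1 match to the T-box motif AGGTGT, found in 11.8%. None of these matches overlapped each other. The first Rcan2 window held 2 cores and 0 AP-1 matches, and 21.4% of all windows held at least 2 cores. The other 2 windows of Rcan2, not printed, held 0 cores, and the third of its windows held 1 AP-1 match. The windows of Nfatc2 (first start), Nfatc4 and Ppp3cb held 3 cores each, so the count of 3 was shared by genes that rose and genes that fell. The GATA motif AGATAA and the MEF2 motif had 0 matches on either strand in the 11 windows. The selection of these 11 windows left out chromosome 18, where Nfatc1 lies. Nfatc1 and Ppp3ca thus had no window among them, Nfatc1 through this selection, and their promoters were not examined. A match is a run of letters, not a measured binding site, and counts per gene do not tell the 2 starts of Rcan1 apart.

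Library totals ranged from 8212643 to 11128472 counts. Mef2c stood at 57.9 to 60.9 CPM in MEF, 533 to 638 CPM in MGT and 591 to 647 CPM in MΔGΔT, where CPM is counts per mega-count of the composition-adjusted library size. Gata4 and Tbx5 also separated both transduced groups from MEF in every library, and the counts cannot tell delivered from native copies. Fibroblast markers summed to 54415 to 63576 CPM in MEF, 30951 to 32290 CPM in MGT and 26355 to 28579 CPM in MΔGΔT. The 9 cardiomyocyte markers summed to 4.89 to 5.56, 1027 to 1209 and 9953 to 11335 CPM in the same order. In MΔGΔT most of this sum was Ttn, with a mean of 6244 CPM. MEF replicate 1 differed more from the other MEF libraries than replicates did elsewhere, with a chi-square per degree of freedom of 4.67 to 7.43 against at most 4.04. Calls and signs of the 8 genes that change without it are given with that value. Some counts over the gene lists below also changed without it. In MGT against MEF, 9 rather than 10 calcineurin-binding regulators rose, and in MΔGΔT against MEF 13 rather than 12.

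In MGT against MEF, 4 of the 8 genes rose (Rcan1, Rcan2, Nfatc1 and Ppp3ca), 3 fell (Nfatc2, Nfatc4 and Ppp3cb), and Nfatc3 was not called. A call means an adjusted p under 0.05 in edgeR's quasi-likelihood test, fitted across all genes. Of all tested genes, 30.9% rose and 30.3% fell in that comparison, so calls were common. The median log2 fold change was 0.24 over the 8 genes and 0.00 over all tested genes. In MΔGΔT against MEF, the same 4 genes rose and all 4 others fell, where 36.2% of all tested genes rose and 36.1% fell, with a median of 0.34 over the 8 genes and -0.01 over all. In MΔGΔT against MGT, 4 genes rose (Rcan1, Rcan2, Nfatc1 and Nfatc2) and 0 fell, where 30.4% of all tested genes rose and 27.8% fell, with medians of 0.22 and 0.01. The comparisons share groups, so they are not independent of each other. The last one also depended on scaling. Of all called genes, 52.3% were higher in MΔGΔT than in MGT, but 28.2% when unadjusted library totals were used and 20.5% with the totals implied by the deposited RPKM values, which moved the median of all genes to -0.16 and -0.25. In MΔGΔT against MEF the share was 50% and dropped to 29% with the RPKM-implied totals, and in MGT against MEF it was 50.5% and reached 61.3% with library totals.

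**Figure D1:**
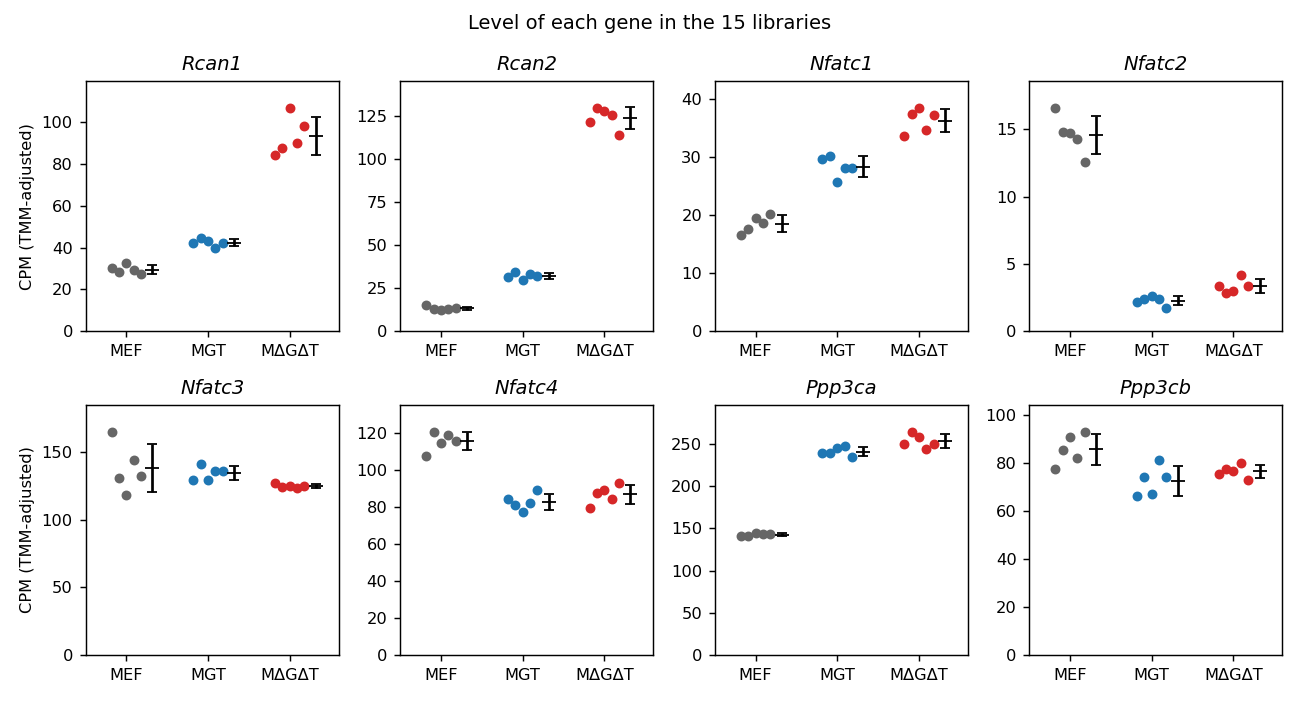
Level of each of the 8 genes in the 15 libraries, in CPM of the adjusted library size on linear axes that start at 0, with 1 panel per gene. Points are libraries, and the bar beside each group shows the mean and SD (n = 5). Rcan1, Rcan2 and Nfatc1 step up from MEF to MGT to MΔGΔT without overlap, and Nfatc2 is highest in all 5 MEF libraries.

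The RCAN regulators rose in both transduced groups and further in MΔGΔT than in MGT. Rcan1 stood at 30.4, 28.4, 32.5, 29.1 and 27.3 CPM in MEF replicates 1 to 5. It stood at 42.2, 44.5, 43.4, 39.7 and 42.2 CPM in MGT, and at 84.2, 88, 107, 90.3 and 98.3 CPM in MΔGΔT. The lowest MGT library was above the highest MEF library, and every MΔGΔT library was above every MGT library. Groups without overlap were common: they made up 45.8% of all tested genes in MGT against MEF, 58.5% in MΔGΔT against MEF and 45.3% in MΔGΔT against MGT. The log2 fold change was 0.52 ± 0.0642 (SE) in MGT against MEF (adjusted p = 4.1e-09), 1.66 ± 0.0597 in MΔGΔT against MEF (2.2e-25) and 1.14 ± 0.0552 in MΔGΔT against MGT (1.5e-20). MΔGΔT cells thus held 3.16-fold the MEF level and 2.21-fold the MGT level.

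Rcan2 encodes the second RCAN regulator. Its MEF libraries read 15.1, 13.1, 12.5, 12.8 and 13.3 CPM. The MGT libraries read 31.3, 34.6, 29.9, 33.4 and 32.3 CPM, and the MΔGΔT libraries 122, 130, 128, 126 and 114 CPM. The 3 groups were far apart relative to their spread, with no overlap. The log2 fold change was 1.27 ± 0.0689 in MGT against MEF (adjusted p = 3.2e-19), 3.21 ± 0.0595 in MΔGΔT against MEF (3.6e-35) and 1.94 ± 0.0501 in MΔGΔT against MGT (1.4e-29). These are folds of 2.41, 9.25 and 3.84. At least 2-fold higher calls made up 6.87%, 10.7% and 5.21% of all tested genes in these comparisons, and Rcan2 was among them in all 3. The 5 smooth muscle markers, of which 4 rose and 1 fell in each comparison, summed to 982 to 1086 CPM in MEF, 1655 to 1863 CPM in MGT and 4428 to 4816 CPM in MΔGΔT. Most of these sums was Acta2, with means of 779, 1429 and 3786 CPM. The part of the smooth muscle and cardiomyocyte markers in the rise of Rcan1 and Rcan2 was not tested. The third RCAN gene, Rcan3, which was not chosen by the rule, fell instead. It averaged 56 ± 2.75 CPM in MEF, 37 ± 1.53 in MGT and 41.6 ± 1.87 in MΔGΔT (SD, n = 5), with log2 fold changes of -0.60 ± 0.0518 (4.3e-13) and -0.43 ± 0.0519 (1.9e-09) against MEF. Its rise of 0.17 ± 0.0536 from MGT to MΔGΔT (adjusted p = 0.00617) was 0.00 with library totals and -0.08 with RPKM-implied totals.

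The catalytic subunits went in opposite directions. Ppp3ca, which encodes the alpha form, stood at 141, 141, 145, 144 and 143 CPM in MEF. It stood at 239, 239, 245, 248 and 235 CPM in MGT and at 250, 265, 259, 244 and 250 CPM in MΔGΔT. Both transduced groups lay well above MEF without overlap, while MGT and MΔGΔT overlapped each other. The log2 fold change was 0.76 ± 0.0352 in MGT against MEF (adjusted p = 2.0e-21) and 0.83 ± 0.0353 in MΔGΔT against MEF (6.9e-23), folds of 1.69 and 1.78. MΔGΔT and MGT differed by 0.07 ± 0.0341 (adjusted p = 0.0767, interval of 1.96 SE on each side 0.00 to 0.14), and by -0.10 and -0.19 with library totals and RPKM-implied totals. The difference was called without MΔGΔT replicate 4 (0.09, adjusted p = 0.0439).

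Ppp3cb, the beta form, moved less. The MEF libraries read 77.3, 85.3, 91, 81.9 and 93.1 CPM. The MGT libraries read 66.1, 74.3, 67.2, 81.3 and 74 CPM, and the MΔGΔT libraries 75.4, 77.6, 76.8, 80 and 72.9 CPM. All 3 groups overlapped. It fell by 0.24 on the log2 scale in MGT against MEF (SE 0.0524, adjusted p = 1.4e-04) and by 0.16 in MΔGΔT against MEF (SE 0.0528, adjusted p = 0.00643). The latter was -0.25 (6.9e-05) with upper-quartile factors, -0.26 (3.6e-05) with library totals and -0.40 (2.2e-07) with RPKM-implied totals. MΔGΔT against MGT was 0.08 ± 0.0528 (adjusted p = 0.214, interval -0.03 to 0.18), and turned to -0.10 and -0.18 with library totals and RPKM-implied totals. It was called higher without MGT replicate 4 (0.12, adjusted p = 0.0459). The annotation places the antisense gene 1810062O18Rik on the opposite strand of Ppp3cb, and whether counting used strand is not given in the sources used here.

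The rest of the enzyme was taken from a list of 3 other subunits, of which 2 were tested. Ppp3cc, the gamma catalytic form, averaged 7.38 ± 0.526 CPM in MEF, 7.66 ± 0.508 in MGT and 13 ± 1.11 in MΔGΔT. It rose in MΔGΔT against MEF (0.82 ± 0.0979, adjusted p = 1.5e-09) and against MGT (0.76 ± 0.0939, 5.5e-09), and read 0.06 ± 0.105 in MGT against MEF (0.671). Ppp3r1, the regulatory B subunit that binds calcium, averaged 35.8 ± 2.9, 33.9 ± 2.04 and 37.8 ± 1.31 CPM in the same order. It was called only in MΔGΔT against MGT, at 0.16 ± 0.0592 (adjusted p = 0.023), and its sign there turned with library totals (-0.02) and RPKM-implied totals (-0.10).

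**Figure D2:**
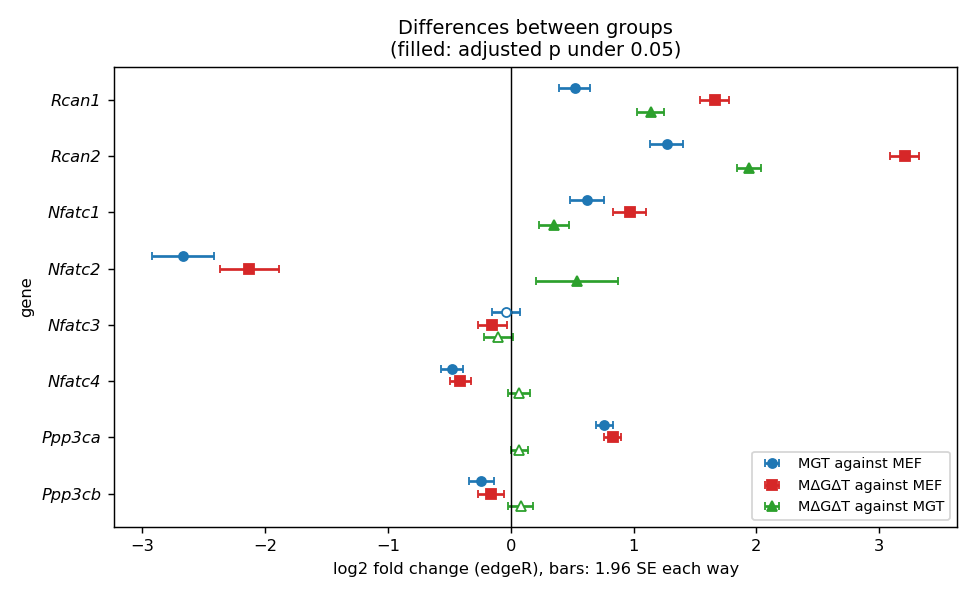
Log2 fold change of each gene (vertical axis) in the 3 comparisons, from edgeR, with bars of 1.96 SE on each side. Filled symbols have an adjusted p under 0.05. Rcan2 reaches 3.21 in MΔGΔT against MEF and Nfatc2 reaches -2.67 in MGT against MEF, while Nfatc3 lies close to 0 throughout.

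The NFATc genes moved in different directions: Nfatc1 rose, Nfatc2 and Nfatc4 fell, and Nfatc3 changed little. Nfatc1 stood at 16.6, 17.6, 19.5, 18.7 and 20.2 CPM in MEF. It stood at 29.7, 30.2, 25.7, 28.2 and 28.1 CPM in MGT and at 33.7, 37.4, 38.5, 34.6 and 37.3 CPM in MΔGΔT. No library of any group reached the range of another group. The log2 fold change was 0.62 ± 0.0692 in MGT against MEF (adjusted p = 3.9e-10), 0.97 ± 0.068 in MΔGΔT against MEF (5.4e-16) and 0.35 ± 0.0618 in MΔGΔT against MGT (5.0e-06), folds of 1.54, 1.96 and 1.28. The last difference shrank to 0.18 (adjusted p = 0.00981) with library totals, and the call was lost with RPKM-implied totals (0.10, adjusted p = 0.227). Nfatc1 lies at chr18:80606205-80713071 on build mm10, where an antisense gene is annotated on the opposite strand.

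Nfatc2, which is abundant in lymphocytes and other blood cells, had the largest fall of the 8 genes. Its MEF libraries read 16.6, 14.8, 14.7, 14.3 and 12.6 CPM. The MGT libraries read 2.2, 2.41, 2.65, 2.38 and 1.73 CPM, and the MΔGΔT libraries 3.33, 2.82, 2.99, 4.15 and 3.38 CPM. MEF stood far above both other groups, and the lowest MΔGΔT library was just above the highest MGT library. The counts behind these levels were 113 to 164 per MEF library, 17 to 30 per MGT library and 28 to 41 per MΔGΔT library. The log2 fold change was -2.67 ± 0.127 in MGT against MEF (adjusted p = 4.2e-21) and -2.13 ± 0.122 in MΔGΔT against MEF (1.0e-18), levels 6.35-fold and 4.37-fold lower. Falls of at least 2-fold were called for 9.39% and 12.2% of all tested genes in these comparisons. MΔGΔT was higher than MGT by 0.54 ± 0.17 on the log2 scale (adjusted p = 0.0062), a call lost with library totals (0.37, 0.0565) and with RPKM-implied totals (0.28, 0.139).

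Like Nfatc2, markers of macrophages fell against MEF. Of 15 macrophage markers 14 were listed, none was at 0 in a group, and all 14 fell in both comparisons with MEF, with median log2 fold changes of -3.52 in MGT and -3.75 in MΔGΔT. Their summed level ran from 2214 to 2943 CPM in MEF, 172 to 310 CPM in MGT and 218 to 319 CPM in MΔGΔT. Lyz2 was the largest part of it, with means of 1429, 141 and 184 CPM. Between MΔGΔT and MGT, where Nfatc2 was called higher, 1 of the 14 fell and 0 rose. Within MEF, replicate 1, the library that stood apart, had the highest Nfatc2 level (16.6 CPM) and the lowest macrophage sum (2214 CPM). Among the other MEF libraries, replicate 2 was highest in both (14.8 and 2943 CPM) and replicate 5 lowest in both (12.6 and 2467 CPM). Replicates 3 (14.7 and 2765 CPM) and 4 (14.3 and 2796 CPM) were in opposite order. In MGT, replicate 3 had the highest Nfatc2 level (2.65 CPM) with a macrophage sum of 206 CPM, and replicate 5 was lowest in both (1.73 and 172 CPM). In MΔGΔT, replicate 2 had the lowest Nfatc2 level (2.82 CPM) and the highest macrophage sum (319 CPM). Of the 10 fibroblast markers, 9 fell and 1 rose in MGT against MEF, and 8 fell and 2 rose in MΔGΔT against MEF. In MΔGΔT against MGT, 7 fell and 3 rose. Their medians were -1.32, -2.17 and -0.87 in the same order. Postn, a fibroblast marker, had log2 fold changes of -2.66, -1.86 and 0.80. The part of macrophages or fibroblasts in the Nfatc2 result was not tested. In bulk RNA, fewer cells of a type and less RNA per cell cannot be told apart.

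**Figure D3:**
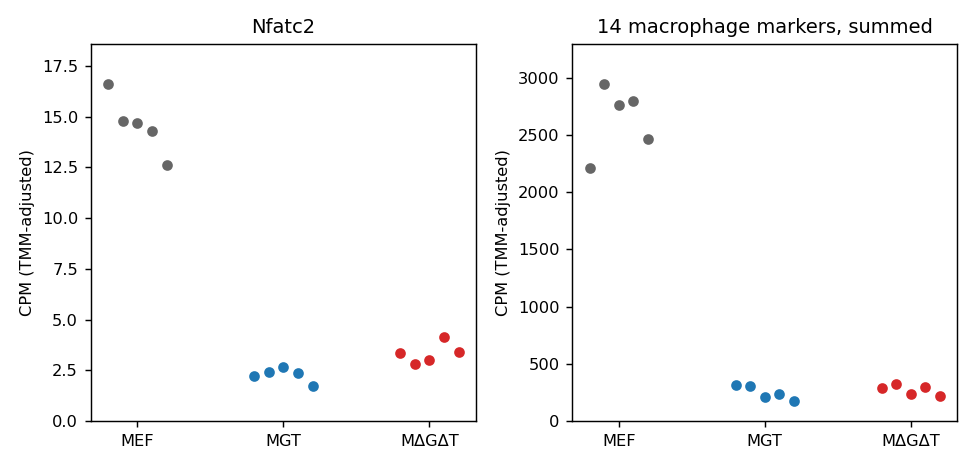
Nfatc2 level (left) and the summed level of 14 macrophage markers (right) in the 15 libraries, both in CPM on linear axes that start at 0, in replicate order within each group. MEF lies above MGT and MΔGΔT in both panels. Within MEF, replicate 1 is highest for Nfatc2 and lowest for the markers, while among the others replicate 2 is highest and replicate 5 lowest in both panels. MEF replicates 3 and 4 are in opposite order between the panels. In MΔGΔT, replicate 2 is lowest for Nfatc2 and highest for the markers.

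Nfatc3, a widely expressed member, was close to level. It stood at 165, 131, 118, 144 and 132 CPM in MEF, 129, 141, 129, 136 and 136 CPM in MGT, and 127, 124, 125, 123 and 125 CPM in MΔGΔT. MEF replicate 1 was the highest of all 15 libraries, and the MEF range enclosed both other groups. MGT against MEF read -0.04 ± 0.0583 (adjusted p = 0.545, interval -0.16 to 0.07), and 0.03 with library totals or without MEF replicate 1. MΔGΔT against MEF was called at -0.15 ± 0.0591 (adjusted p = 0.0308), but read -0.07 (0.142) without MEF replicate 1. That call was also lost without MEF replicate 4 (adjusted p = 0.0648) and without MΔGΔT replicate 2 (0.056), 3 (0.0553) or 4 (0.0525). Other scalings gave a larger difference, of -0.23 (0.00129) with upper-quartile factors, -0.24 (9.6e-04) with library totals and -0.38 (1.5e-06) with RPKM-implied totals. MΔGΔT against MGT read -0.10 ± 0.0586 (adjusted p = 0.139, interval -0.22 to 0.01), although every MΔGΔT library lay below every MGT library. It was called lower with upper-quartile factors (-0.16, 0.0209), library totals (-0.28, 3.1e-04) and RPKM-implied totals (-0.36, 5.2e-06), in a fit of these 2 groups alone (-0.12, 0.00288), and without MEF replicate 1 (-0.10, 0.0271). Esrp2 overlaps Nfatc3 on the opposite strand.

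Nfatc4, known from heart and nervous tissue, fell to a like level in both transduced groups. The MEF libraries read 108, 121, 115, 119 and 116 CPM. The MGT libraries read 84.7, 81.1, 77.6, 82.2 and 89.3 CPM, and the MΔGΔT libraries 79.5, 87.9, 89.5, 84.7 and 93 CPM. Every MEF library lay above every other library, and MGT and MΔGΔT overlapped. The log2 fold change was -0.48 ± 0.0446 in MGT against MEF (adjusted p = 2.9e-12) and -0.41 ± 0.045 in MΔGΔT against MEF (1.3e-10), levels 1.4-fold and 1.33-fold lower. The latter difference was -0.65 (3.2e-13) with RPKM-implied totals. MΔGΔT against MGT was 0.07 ± 0.0457 (adjusted p = 0.206, interval -0.02 to 0.16), and -0.11 and -0.19 with library totals and RPKM-implied totals. Nfat5, the family member that calcineurin does not control, averaged 307 ± 27.5 CPM in MEF, 366 ± 20.4 in MGT and 511 ± 43.3 in MΔGΔT. It rose in all 3 comparisons, by 0.25 ± 0.0653, 0.73 ± 0.0653 and 0.48 ± 0.0645 on the log2 scale (adjusted p = 0.00311, 2.1e-08 and 6.0e-06).

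Levels of different genes were set against each other on the deposited RPKM, which divides by gene length. Its library totals differ from the adjusted ones, which does not alter the order of genes or a share within a library. In MEF the order ran from Nfatc4 (18.6 ± 1.24 RPKM, mean and SD, n = 5) through Ppp3ca (16.7), Nfatc3 (13.8 ± 1.73), Ppp3cb (9.23), Rcan1 (7.62), Rcan2 (2.3) and Nfatc1 (1.61) to Nfatc2 (0.888). Neighbours overlapped from Nfatc4 to Ppp3ca, from Ppp3ca to Nfatc3, and from Ppp3cb to Rcan1. In MGT the order was Ppp3ca (28.6), Nfatc3 (13.6 ± 0.908), Nfatc4 (13.5 ± 0.806), Rcan1 (11.1), Ppp3cb (7.93), Rcan2 (5.65), Nfatc1 (2.5) and Nfatc2 (0.142), and only Nfatc3 and Nfatc4 overlapped. In MΔGΔT it was Ppp3ca (25.2), Rcan1 (20.4), Rcan2 (18.1), Nfatc4 (11.9 ± 1.06), Nfatc3 (10.6 ± 0.426), Ppp3cb (7), Nfatc1 (2.68) and Nfatc2 (0.172). There the neighbours from Ppp3ca to Rcan2 overlapped, as did Nfatc4 and Nfatc3. Rcan2 had moved from below Ppp3cb and both abundant NFATc genes in MEF to above them.

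The make-up of each family shifted accordingly. Nfatc3 and Nfatc4 together made up most of the NFATc sum in every group. Nfatc4 held 53.4% of that sum in MEF, 45.4% in MGT and 46.8% in MΔGΔT. Nfatc1 held 4.62%, 8.4% and 10.6%, and Nfatc2 held 2.54%, 0.479% and 0.684%. Of the catalytic subunits, Ppp3ca held 58.9% in MEF, 73.2% in MGT and 70.3% in MΔGΔT. Among the RCAN genes the composition turned over: Rcan2 went from 13.6% to 26.3% and 42.2%, and Rcan3 from 41.6% to 22.1% and 10.4%, while Rcan1 stayed between 44.8% and 51.6%.

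**Figure D4:**
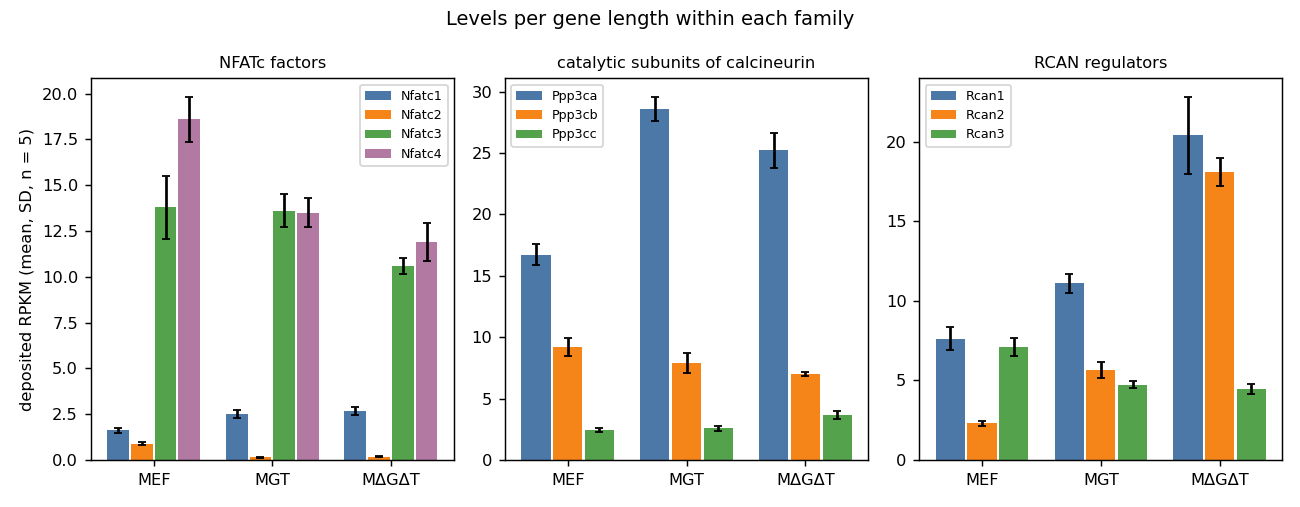
Deposited RPKM of the NFATc factors (left), the catalytic subunits of calcineurin (middle) and the RCAN regulators (right) by group, on linear axes that start at 0. Bars are means and error bars SD over 5 libraries. Nfatc3 and Nfatc4 dominate the NFATc panel, Ppp3ca the middle panel, and Rcan2 climbs from 2.3 in MEF to 18.1 in MΔGΔT.

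Other genes of the route were read from lists by role. Of 17 tested calcineurin-binding regulators and anchors (19 listed), 10 rose and 3 fell in MGT against MEF, 12 rose and 2 fell in MΔGΔT against MEF, and 10 rose and 1 fell in MΔGΔT against MGT. Their medians were 0.18, 0.37 and 0.15, but scaling changed the counts. With RPKM-implied totals 7 rose and 4 fell in MΔGΔT against MEF, and 6 rose and 6 fell in MΔGΔT against MGT, where library totals gave 7 and 6. Myoz2 encodes calsarcin-1, a sarcomere protein that binds calcineurin. It had 0 counts in MEF, 2.19 ± 0.446 CPM in MGT and 35.1 ± 2.51 CPM in MΔGΔT, at least 34.1-fold and at least 545-fold higher than a floor of 3 counts over the MEF group. The medians are the same with Myoz2 at this bound. Myoz2 rose beside all 9 cardiomyocyte markers, whose part in its change was not tested. Lmcd1, a LIM protein that activates the route in mouse heart, averaged 11.2 ± 1.2, 27.2 ± 2.85 and 69.7 ± 1.66 CPM, with log2 fold changes of 1.27 ± 0.0801, 2.63 ± 0.0716 and 1.36 ± 0.0598 (adjusted p = 3.5e-17, 1.8e-29 and 6.5e-22). Akap5, an anchor that holds calcineurin near channels, rose by 3.59 ± 0.139 in MΔGΔT against MEF (2.8e-24) and by 1.30 ± 0.0969 against MGT (1.0e-14). Fhl2, a LIM protein that restrains calcineurin in heart muscle, rose by 0.88 ± 0.0462 in MGT (1.1e-19), and Akap1, the mitochondrial anchor, by 0.78 ± 0.0508 (1.1e-16), both against MEF. Akap1 was lower in MΔGΔT than in MGT (-0.41 ± 0.0488, 2.9e-09).

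Kinases that phosphorylate NFAT and the nuclear transport genes had small medians. Of 14 tested (15 listed), 10 rose and 0 fell in MGT against MEF, 12 rose and 0 fell in MΔGΔT against MEF, and 6 rose and 2 fell in MΔGΔT against MGT, with medians of 0.15, 0.19 and 0.06. This direction hung on scaling: in MΔGΔT against MEF, 6 rose and 2 fell with library totals, and 4 rose and 5 fell with RPKM-implied totals. In MΔGΔT against MGT it turned over, with 2 higher and 7 lower with library totals and 2 higher and 9 lower with RPKM-implied totals. Mapk8, which encodes JNK1, averaged 32.6 ± 2.98, 52.7 ± 2.03 and 77.1 ± 5.39 CPM, with log2 fold changes of 0.69 ± 0.0594, 1.24 ± 0.0578 and 0.55 ± 0.0529 (adjusted p = 3.7e-13, 1.4e-21 and 1.3e-11). Lrrk2 rose by 0.88 ± 0.0512 in MΔGΔT against MEF (1.8e-18) and by 0.67 ± 0.0492 against MGT (5.3e-15). Xpo1, the exportin that carries NFAT out of the nucleus, rose by 0.26 ± 0.0431 in MGT against MEF (1.8e-06) and fell by 0.28 in MΔGΔT against MGT (SE 0.0431, 6.1e-07). In MGT against MEF, Mapk9 rose by 0.34 ± 0.0438 (8.3e-09), and in MΔGΔT against MEF, Mapk14 rose by 0.43 ± 0.0437 (1.9e-11).

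The 20 genes of calcium entry, release and calmodulin were split. In MGT against MEF 8 rose and 6 fell, in MΔGΔT against MEF 10 rose and 6 fell, and in MΔGΔT against MGT 11 rose and 4 fell, with medians of 0.06, 0.17 and 0.20. With RPKM-implied totals 8 rose and 9 fell in each of the MΔGΔT comparisons, and with library totals 9 rose and 7 fell in each. Cacna1c, the pore subunit of the L-type calcium channel, averaged 69.3 ± 6.26, 119 ± 10.3 and 246 ± 9.8 CPM and rose in MΔGΔT by 1.83 ± 0.0569 on the log2 scale against MEF (adjusted p = 4.6e-21) and by 1.05 ± 0.0534 against MGT (1.2e-15). In MGT against MEF, Itpr1, a calcium release channel, rose by 0.76 ± 0.0397 (8.7e-20) and Plcb4, a phospholipase gene, by 0.87 ± 0.0704 (6.3e-14). Both were lower in MΔGΔT than in MGT, at -0.28 ± 0.0386 (5.4e-08) and -0.61 ± 0.068 (5.9e-10). Plcg2, a phospholipase of blood cells, fell from 33.4 ± 2 CPM in MEF to 7.35 ± 0.389 in MGT and 11.6 ± 0.897 in MΔGΔT, log2 fold changes of -2.18 ± 0.0784 (4.6e-25) and -1.52 ± 0.0742 (5.6e-21). Plcg2 was higher in MΔGΔT than in MGT (0.66 ± 0.0936, 1.2e-07), where 0 of the 14 tested macrophage markers rose and 1 fell. Against MEF it fell beside the macrophage markers, whose part in its change was not tested.

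Of the 10 nuclear partners, 3 rose and 4 fell in both comparisons with MEF, and 5 rose and 4 fell in MΔGΔT against MGT, with medians of -0.03, 0.04 and 0.03. With library totals 4 rose and 2 fell in MGT against MEF, and with RPKM-implied totals 2 rose and 6 fell in MΔGΔT against MGT. Mef2c and Gata4 belong to this list and were delivered by the virus. Jun, a part of AP-1, averaged 395 ± 25 CPM in MEF and 155 ± 18.8 in MGT, a log2 fold change of -1.35 ± 0.0781 (adjusted p = 5.0e-10). Mef2d averaged 87.8 ± 4.62, 86.3 ± 5.08 and 129 ± 2.49 CPM, and rose in MΔGΔT by 0.55 ± 0.0431 against MEF (1.6e-14) and 0.58 ± 0.0425 against MGT (7.8e-15). Irf2bp2, a repressor partner of NFATc2, fell by 0.42 in MΔGΔT against MGT (SE 0.0457, 3.0e-10).

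Of 18 genes reported as NFAT targets in various cell types, Rcan1 and Nfatc1 included, 15 were tested. In MGT against MEF 6 rose and 8 fell, in MΔGΔT against MEF 8 rose and 7 fell, and in MΔGΔT against MGT 10 rose and 2 fell, with medians of -0.80, 0.61 and 0.79. With RPKM-implied totals, 8 rose and 4 fell in the last comparison. Ptgs2, which encodes cyclooxygenase-2, averaged 15.5 ± 0.911, 34.6 ± 2.57 and 113 ± 4.49 CPM, with log2 fold changes of 1.16 ± 0.0658, 2.87 ± 0.0581 and 1.71 ± 0.0497 (adjusted p = 1.4e-18, 7.8e-34 and 7.4e-28). Like Rcan2, it rose from MEF to MGT and again to MΔGΔT. Adamts1, a secreted protease gene, fell from 801 ± 60.5 CPM in MEF to 364 ± 19.7 in MGT (-1.14 ± 0.0424, 9.6e-22). In MΔGΔT it averaged 666 ± 18.1 CPM, higher than in MGT (0.87 ± 0.0423, 2.9e-18). Ctsk, a cathepsin gene known from osteoclasts, fell from 124 ± 7.37 to 61.8 ± 3.6 CPM in the same comparison (-1.01 ± 0.0501, 2.4e-20). Ctsk and Acp5, which are also in the list of osteoclast markers, and Tnf, a macrophage cytokine, are on this list. In MGT against MEF, their log2 fold changes were -1.01, -1.76 and -2.98. The median was -3.52 for the macrophage markers and -1.32 for the fibroblast markers. Among the genes that rose, Myh7 is also 1 of the 9 cardiomyocyte markers. It rose by 2.35 ± 0.148 in MΔGΔT against MGT (6.3e-16), where the median of those markers was 2.37. The part of any of these cells in the falls and rises was not tested.

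**Figure D5:**
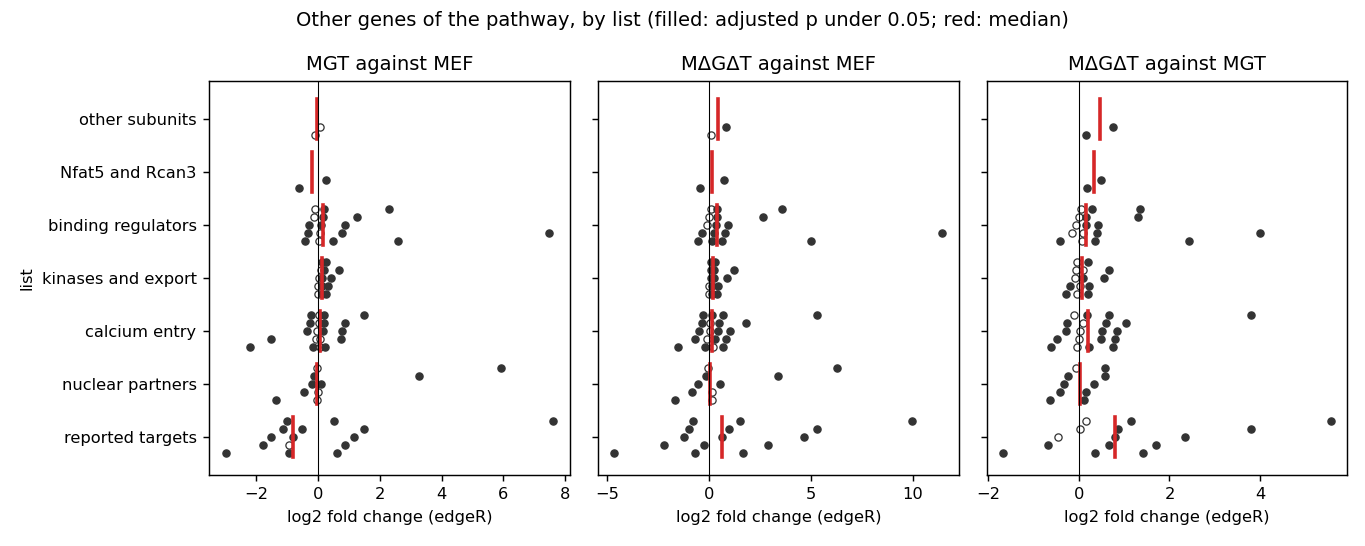
Log2 fold changes (horizontal axes, which differ in range) of the other genes of the route by list (vertical axis), in the 3 comparisons. Each point is a gene, filled where its adjusted p is under 0.05, and red bars are medians. The reported targets have the widest spread, with a median from -0.80 in MGT against MEF to 0.79 in MΔGΔT against MGT, and the rightmost points in the first 2 panels, Myoz2 and Myh7, have 0 counts in MEF, so their fitted values depend on the prior count.

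The genes whose log2 levels over the 15 libraries were most like each of the 8 were listed as a description, by Pearson's r among 11662 genes with a mean log2 CPM above 1. The libraries fall into 3 groups, so r mostly reflects the pattern of group means. Rcan2 was most like Ptgs2 (0.999) and Tspan2 (0.998), and Rcan1 most like Ak1 (0.996) and Msn (0.995). Ppp3ca was most like Ctnna1 (0.998) and Dag1 (0.998). Ctnna1 averaged 272, 567 and 617 CPM in MEF, MGT and MΔGΔT, and Dag1 439, 1092 and 1175 CPM. Nfatc1 was most like Bmper (0.987) and Cfl2 (0.986). Nfatc2 was most like Fli1 (0.991) and Aspn (0.990), and Nfatc4 most like L1cam (0.979) and Mmp28 (0.977). In MEF, MGT and MΔGΔT, Fli1 averaged 30.4, 10.7 and 12.6 CPM, and Aspn 278, 66.8 and 85.5 CPM. The closest partners of Nfatc3 (Thap2, 0.893) and Ppp3cb (Ogfrl1, 0.919) were less alike.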

How the data were processed

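RNA-seq counts per gene were taken for 15 libraries, grouped by their titles. Directional libraries were made after ribosomal RNA depletion, per the labels' protocols. The raw counts and the RPKM values are both columns of 1 table that the authors deposited, with mm10 named as the build in the submitters' processing notes. Not given in the sources used here are the aligner, the counter, its use of strand and the gene lengths behind the RPKM. A further 30 deposited columns of normalised or transformed values per sample were not used. In 21 features, with 0.258% of the counts, the symbol had been turned into a date. They stayed in library sizes and tests and are not named.

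Testing used edgeR 4.0.16 (R 4.3.3) on these counts, with TMM factors, filterByExpr by group and a robust quasi-likelihood fit of all 15 libraries with group as the only term (12 residual degrees of freedom, biological coefficient of variation 4.86%). The 3 pairs of groups were compared by the quasi-likelihood F-test, with Benjamini-Hochberg adjustment over all 13328 tested genes, and "rose" and "fell" are used for genes with an adjusted p under 0.05. SEs were derived from the F statistics, and intervals span 1.96 SE on each side. The procedure was tested on simulated data with few changed genes, equally many up and down. That test does not bear on scaling where many genes change, as here. Alternatives were RLE, upper-quartile and no composition factors (library totals), totals implied by the deposited RPKM, DESeq2 1.42.0, limma-trend (limma 3.58.1), no filter on low counts, fits of only the groups compared, a replicate block, and leaving out each library in turn. The same alternatives for the lists and the genes named from them were added after seeing the data.

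The members and gene lists were chosen with earlier results of these data known, so no count over a list has a test of its own. All 8 members are named, with the 3 genes of smallest adjusted p per list and comparison and the 2 genes most correlated with each member (no predicted genes). Some genes that this rule names are not reported here. Acp5, Tnf, Myh7 and the cell type markers named singly were picked out after their values were seen. Coordinates and overlaps are from GENCODE M21 on mm10. Not every overlap is named above: Rcan1, Rcan2 and Ppp3ca also overlap annotated genes, and Gm42822 lies on the same strand as Ppp3ca. Nfatc2 and Nfatc4 had 0 overlapping genes.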

Additional observations from a re-analysis of the deposited data

How the results depend on the processing

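Of 576 values of the 8 genes over all alternatives, 553 kept their direction and their side of the threshold. Of the rest, 8 lost a call, 7 gained one with the same sign and 8 changed sign. Some sign changes, all in MΔGΔT against MGT, were also called lower. They were Nfatc4, Ppp3ca and Ppp3cb with RPKM-implied totals (adjusted p = 0.00498, 9.9e-04 and 0.00885), and Nfatc4 and Ppp3ca with library totals (0.0414 and 0.00729). Of the 360 values that each left out 1 library, 351 kept both. All members but Nfatc3 kept their calls against MEF in every alternative run, as did Rcan1 and Rcan2 in MΔGΔT against MGT. Of the 23 values that changed call or sign, 11 lay in MΔGΔT against MGT with unadjusted library totals or RPKM-implied totals, and 10 of the other 12 were of Nfatc3. The cause was not tested. With library totals 2436 genes were higher and 6200 lower in that comparison, and with RPKM-implied totals 1873 and 7278, against 4056 and 3706. In MΔGΔT against MEF, 2928 genes were higher with RPKM-implied totals, against 4819. Among the 8 genes, RPKM-implied totals left 2 higher and 4 lower in MΔGΔT against MGT, library totals gave 3 lower, upper-quartile factors 1 lower and a fit of only these groups 1 lower. Leaving out 1 library gave 0 to 1 lower, the 1 being Nfatc3 without MEF replicate 1. Signs turned in MΔGΔT against MGT, with library totals and RPKM-implied totals in that order, for Nfatc4 (-0.11 and -0.19), Ppp3ca (-0.10 and -0.19), Ppp3cb (-0.10 and -0.18), Ppp3r1 (-0.02 and -0.10) and Rcan3 (0.00, just below 0, and -0.08). Nfatc3 in MGT against MEF turned to 0.03 with library totals and to 0.03 without MEF replicate 1. Ppp3r1 in MΔGΔT against MEF turned to -0.01 with upper-quartile factors, -0.02 with library totals and -0.16 with RPKM-implied totals. DESeq2 called 4032 genes higher and 3748 lower in MGT against MEF, 4711 and 4672 in MΔGΔT against MEF, and 3820 and 3596 in MΔGΔT against MGT.

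Replicate numbers did not pair the libraries: same-numbered libraries of different groups correlated between -0.092 and 0.067 in their deviations from the group means, and the own number gave the best match in 3 of 15 pairings. With a replicate block, 4078 genes were higher and 4001 lower in MGT against MEF, 4794 and 4799 in MΔGΔT against MEF, and 4005 and 3677 in MΔGΔT against MGT, and no call of the 8 genes changed. Depth limits Nfatc2 most, with 17 to 30 counts per MGT library.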

Other observations

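Nfatc1, which rose in both transduced groups, is known as a master regulator of osteoclasts and as an endocardial gene, so the markers of these cells are given beside it. Of 6 osteoclast markers 3 were tested, and all 3 fell against MEF in both groups. Their summed level ran from 178 to 200 CPM in MEF, 64.6 to 73.5 CPM in MGT and 62.2 to 77.4 CPM in MΔGΔT. Most of these sums was Ctsk, with means of 124, 61.8 and 62.9 CPM. Atp6v0d2, a proton pump subunit that Nfatc1 activates in osteoclasts, averaged 57 ± 3.34, 4.03 ± 1.03 and 4.38 ± 1.13 CPM (SD, n = 5), log2 fold changes of -3.81 ± 0.104 and -3.69 ± 0.106 against MEF (adjusted p = 1.3e-26 and 3.0e-26). Of 8 endothelial markers 5 were tested: 2 rose and 2 fell in MGT against MEF, 2 rose and 2 fell in MΔGΔT against MEF, and 2 rose and 3 fell in MΔGΔT against MGT. Their sum was 138 to 161 CPM in MEF, 179 to 197 CPM in MGT and 499 to 540 CPM in MΔGΔT, most of it Flt1, a receptor gene that averaged 117 ± 7.5, 149 ± 9.59 and 486 ± 18.8 CPM. Tek, another endothelial receptor gene, averaged 10.4 ± 0.43, 2.22 ± 0.469 and 0.4 ± 0.12 CPM.

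Lymphocytes are rich in Nfatc2, and of 5 T lymphocyte markers 3 were listed, with sums of 1.09 to 2.68 CPM in MEF, 2.24 to 3.06 CPM in MGT and 0.91 to 1.33 CPM in MΔGΔT. The 1 tested, Cd8a, rose against MEF in both groups and was lower in MΔGΔT than in MGT. Of the 4 tested neural markers, 3 fell in MGT against MEF, 4 in MΔGΔT against MEF and 2 in MΔGΔT against MGT, and 0 rose, with sums of 166 to 208, 79.6 to 97 and 58.4 to 70.8 CPM. Most of these sums was Map2, with means of 160, 67.5 and 51.6 CPM. The 3 tested skeletal muscle markers rose in all 3 comparisons, with sums of 0.121 to 0.896, 3.31 to 4.59 and 108 to 135 CPM. In MΔGΔT most of the skeletal muscle sum was Myl1, with a mean of 110 CPM. Of the 10 fibroblast markers, 9 fell and 1 rose in MGT against MEF, 8 fell and 2 rose in MΔGΔT against MEF, and 7 fell and 3 rose in MΔGΔT against MGT. The part of any of these cells in the results for Nfatc1 and Nfatc2 was not tested.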
